A study of Mus musculus with 38 samples.

Results

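The 9 mouse genes *Nrxn3*, *Cntnap2*, *Lsamp*, *Dlg2*, *Csmd1*, *Ctnna2*, *Cdh13*, *Opcml* and *Macrod2* were taken by name from the GENCODE vM1 annotation as a group of very long genes known mostly from neuronal adhesion. They are 9 of 200 protein-coding genes of at least 500 kb, and of 22367 protein-coding genes on chromosomes 1 to 19, X and Y. Together they span 13.4 Mb and hold 1523 of the 232310 base-unpairing regions (BURs) mapped on those chromosomes. A region was counted in a gene when its centre lay between the annotated start and end. All 9 genes entered each comparison given here. *Lsamp*, *Opcml* and *Cdh13* have under 100 BURs and drop out where that many are required. The name does not hold for all of them. *Macrod2* encodes a hydrolase that removes ADP-ribose from proteins and is not an adhesion molecule, and *Ctnna2* and *Dlg2* act inside the cell beneath adhesion sites.

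The study asked where the nuclear protein SATB1 sits on the genome in different tissues of C57BL/6 mice with wild-type *Satb1*, and 11 peak lists were used. The BUR reference map (1 list) was made in vitro with SATB1 protein and sheared thymus DNA. In urea ChIP-seq the crosslinked chromatin passes through a urea gradient ahead of the antibody step, which strips proteins that are not crosslinked. It was done for SATB1 in brain (frontal cortex cells), thymocytes and skin (primary epidermal keratinocytes), with 2 libraries each and the antibody 1583D made by the authors. Standard ChIP-seq of SATB1 in thymocytes has 2 lists. Replicate 1 used the antibody ab109122 and has 15 s in its title, and replicate 2 used 1583D and has 150 s. Antibody and the seconds in the title thus differ between them, and the titles do not say what the seconds measure. CTCF was mapped by urea ChIP-seq in thymocytes and keratinocytes, with 1 list each. The age labels are 5 weeks and 6 weeks for the brain libraries and postnatal day 13 for all thymocyte and keratinocyte libraries. The protocol text gives day 13 for brain and day 5 for keratinocytes. The study's methods differ again, with a range of weeks for brain and an age younger than either of these for keratinocytes. The titles of CTCF thymocytes and of standard replicate 1 give 6 weeks, so age and tissue cannot be told apart. The brain titles also differ in cycles (10 and 12), the keratinocyte titles in seconds (55 and 60) and the thymocyte urea titles in volume (4 and 2 µl). The 2 urea libraries of a tissue carry the same experiment number, so p-values measure the spread between libraries, which may be technical. The files hold no expression, so the tissue labels could not be checked against marker genes.

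SATB1 is a chromatin organizer abundant in thymocytes and also present in other cells, among them cortical neurons and epidermal cells. BURs are AT-rich stretches, often of 1 strand with no G or no C, whose bases readily unpair under negative supercoiling, and SATB1 recognizes them in the minor groove. The 9 genes have long introns and belong to several families. *Nrxn3* encodes a presynaptic neurexin and *Cntnap2* the related axonal protein CASPR2. *Lsamp* and *Opcml* encode IgLON proteins held to the neuronal surface by a lipid anchor. *Cdh13* encodes T-cadherin, which has such an anchor in place of a cytoplasmic tail, and *Ctnna2* encodes the neuronal α-catenin that links cadherins to actin. *Dlg2* encodes the postsynaptic scaffold PSD-93, and *Csmd1* a large membrane protein with complement control domains.

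On the chromosomes named above the brain lists held 117958 and 109149 peaks, the thymocyte urea lists 44926 and 38771, and the keratinocyte SATB1 lists 10989 and 10619. The standard lists held 47836 and 26887 peaks, and the CTCF lists 20219 in thymocytes and 31215 in keratinocytes. Peaks were called separately in each library. The lists hold no read counts. The study's text calls the aligned reads of the urea libraries similar in total, and these totals were not used here.

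Of the 1523 BURs, 40 overlapped a peak in all 6 urea SATB1 libraries. The one with the highest mean fold enrichment over the local background is shown for each gene, because these are the sites of the 9 genes that SATB1 occupied in all tissues examined. Each line gives 120 bases of the plus strand of NCBIM37 (mm9), 5′ to 3′, centred on the in vitro summit. Capitals mark the longest stretch without C or without G in that window.
Nrxn3, chr12:91198257-91198376: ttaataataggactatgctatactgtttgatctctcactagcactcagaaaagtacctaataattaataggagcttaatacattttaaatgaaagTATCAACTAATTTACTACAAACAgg
Cntnap2, chr6:45448759-45448878: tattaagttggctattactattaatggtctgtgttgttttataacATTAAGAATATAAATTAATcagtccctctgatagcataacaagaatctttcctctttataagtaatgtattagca
Lsamp, chr16:42143001-42143120: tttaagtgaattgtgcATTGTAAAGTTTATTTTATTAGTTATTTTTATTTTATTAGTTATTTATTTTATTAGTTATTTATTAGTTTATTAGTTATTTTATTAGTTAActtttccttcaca
Dlg2, chr7:99153563-99153682: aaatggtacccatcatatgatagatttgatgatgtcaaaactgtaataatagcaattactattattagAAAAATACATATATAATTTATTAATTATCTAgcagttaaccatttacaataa
Csmd1, chr8:16122816-16122935: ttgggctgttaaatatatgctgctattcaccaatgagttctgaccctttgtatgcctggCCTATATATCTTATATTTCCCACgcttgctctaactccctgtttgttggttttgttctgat
Ctnna2, chr6:77437508-77437627: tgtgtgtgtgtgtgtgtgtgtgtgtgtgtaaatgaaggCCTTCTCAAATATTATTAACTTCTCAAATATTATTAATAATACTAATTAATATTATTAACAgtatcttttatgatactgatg
Cdh13, chr8:121364592-121364711: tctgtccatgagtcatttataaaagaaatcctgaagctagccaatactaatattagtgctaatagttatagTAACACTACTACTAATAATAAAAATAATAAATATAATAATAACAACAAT
Opcml, chr9:27625400-27625519: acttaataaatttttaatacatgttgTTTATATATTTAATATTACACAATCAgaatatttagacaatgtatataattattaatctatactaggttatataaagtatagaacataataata
Macrod2, chr2:141973937-141974056: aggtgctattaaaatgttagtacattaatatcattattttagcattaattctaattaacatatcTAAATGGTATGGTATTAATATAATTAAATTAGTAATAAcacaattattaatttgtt
All 9 lay in introns. In the 120 bases shown, AT content was between 60% in *Csmd1* and 85% in *Lsamp* and *Opcml*, and the stretch in capitals was between 19 bases in *Cntnap2* and 91 bases in *Lsamp*. The *Nrxn3* site had fold enrichments of 23.5 and 25.7 in brain, 27.4 and 28.5 in thymocytes, and 19.3 and 19.2 in keratinocytes. At the *Dlg2* site they were 25.9 and 24.2 in brain, 22.8 and 22.4 in thymocytes, and 6.71 and 6.14 in keratinocytes. Fold enrichment is scaled to the background of each library, so levels were not compared across tissues. Over all 40 sites, the median fold enrichment was 15.4 and 15.9 in the brain libraries, 17.6 and 19.3 in thymocytes, and 10.6 and 8.80 in keratinocytes.

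*Cntnap2*, *Dlg2* and *Macrod2* had the most BURs. For each of these 3 genes the following lines show the BUR that was bound in both brain libraries and in no thymocyte or keratinocyte library, with the highest mean brain fold enrichment, as examples of brain-only occupancy.
Cntnap2, chr6:46486046-46486165: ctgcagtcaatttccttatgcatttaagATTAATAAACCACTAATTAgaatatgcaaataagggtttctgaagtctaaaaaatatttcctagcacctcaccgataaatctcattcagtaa
Dlg2, chr7:98148269-98148388: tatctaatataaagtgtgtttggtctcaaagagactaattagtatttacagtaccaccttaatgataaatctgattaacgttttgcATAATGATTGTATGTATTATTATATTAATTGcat
Macrod2, chr2:141628948-141629067: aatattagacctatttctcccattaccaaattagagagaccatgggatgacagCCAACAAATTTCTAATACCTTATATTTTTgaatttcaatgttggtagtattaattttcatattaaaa
The brain fold enrichments were 20.1 and 16.8 in *Cntnap2*, 13.8 in both libraries in *Dlg2*, and 16.0 in both libraries in *Macrod2*.

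The last 3 sequences are the BURs with the highest in vitro fold enrichment among those that no urea SATB1 library bound, 18.3 in *Cntnap2*, 16.6 in *Dlg2* and 17.6 in *Macrod2*.
Cntnap2, chr6:47063607-47063726: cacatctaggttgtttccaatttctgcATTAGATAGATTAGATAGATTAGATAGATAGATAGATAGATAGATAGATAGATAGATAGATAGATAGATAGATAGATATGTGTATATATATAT
Dlg2, chr7:98236369-98236488: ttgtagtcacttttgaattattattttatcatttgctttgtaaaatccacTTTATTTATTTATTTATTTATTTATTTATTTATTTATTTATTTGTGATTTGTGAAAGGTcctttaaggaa
Macrod2, chr2:141683796-141683915: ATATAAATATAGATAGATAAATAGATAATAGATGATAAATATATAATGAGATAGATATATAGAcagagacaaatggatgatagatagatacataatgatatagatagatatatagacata
In these windows the stretch without C ran to 93, 59 and 63 bases, made in *Cntnap2* of GATA repeats and in *Dlg2* of TTTA repeats. They were chosen for high in vitro enrichment, and mapping was restricted to unique matches by the authors. The part of read mapping in repeats was not tested. Across the members, the median longest stretch without C or G was 43 bp in the 836 BURs free in all libraries and 40 bp in the 40 bound in all.

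The genes were unlike in the number of BURs they offered. The 9 gene bodies held 114 BURs per Mb, against 87.5 per Mb over the genome and 112 per Mb in the other 191 genes of at least 500 kb, whose range was 15.5 to 251. *Cntnap2* (chr6:45010060-47251368, plus strand, 2.24 Mb) held 378 BURs, or 169 per Mb, and ranked 41 of 200 long genes. *Dlg2* (chr7:97650473-99595513, plus strand, 1.95 Mb) held 284, or 146 per Mb. *Macrod2* (chr2:140221045-142218702, plus strand, 2.00 Mb) held 239, or 120 per Mb. The genes in the middle were *Ctnna2* (chr6:76831631-77929693, minus strand) with 112 per Mb, *Lsamp* (chr16:41532971-42181792, plus strand) with 106, *Nrxn3* (chr12:89961320-91573375, plus strand) with 98.0 and *Csmd1* (chr8:15892537-17535586, minus strand) with 96.8. *Opcml* (chr9:27598360-28732995, plus strand) held 79 BURs, or 69.6 per Mb. *Cdh13* (chr8:120807633-121848821, plus strand) held 34, or 32.7 per Mb, and ranked 183 of 200. *Cdh13* thus had the lowest density of the 9, below that of the genome. Its gene body was also the poorest in A and T at 54.1%, against 59.0% to 62.2% in the other 8 and 58.2% over these chromosomes. The *Cdh13* BURs had a median in vitro fold enrichment of 9.57, against medians of 5.31 to 6.63 in the other 8 genes. The longest stretches without a BUR centre were 143 kb in *Cdh13* and 141 kb at the 5′ end of *Nrxn3*, and neither contained unsequenced bases. Of the 1523 BURs, 10 touched an annotated exon of the 9 genes, which is 0.657%, and the others lay in introns of these genes. Exons of nested genes were not looked at, and the share to be had from exon length alone was not computed. *Lrrtm1*, nested in *Ctnna2*, and *Flrt3*, nested in *Macrod2*, are themselves neuronal adhesion genes whose BURs were counted with the host.

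A BUR was counted as bound when it shared at least 1 bp with a urea SATB1 peak. In all 9 genes the share of BURs bound was highest in brain and lowest in keratinocytes, and no value of 1 tissue overlapped that of another within a gene. Each share is a number of BURs out of those in the gene. Its exact 95% binomial interval covers counting error only and treats neighbouring BURs as independent. Bulk chromatin was used, so fewer cells with SATB1 and less SATB1 on the DNA of each cell cannot be told apart. This matters for brain, where the labels say that neurons alone express SATB1.

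**Figure D1:**
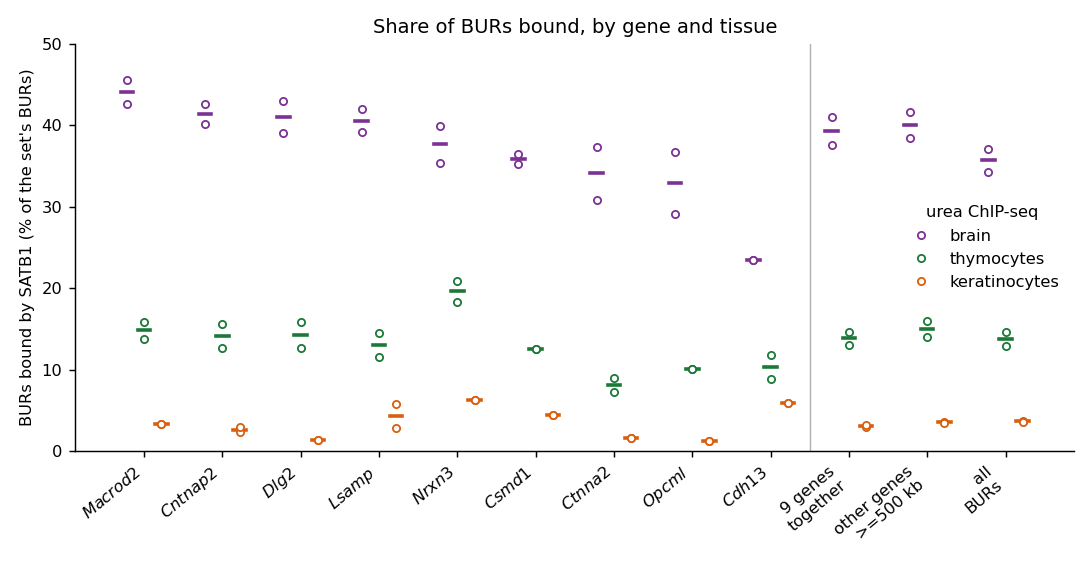
Share of BURs bound by SATB1 (%) in each gene and in 3 pooled sets. Points are the 2 urea ChIP-seq libraries of each tissue and lines their means. In each gene the brain points lie above the thymocyte points and these above the keratinocyte points, and *Cdh13* has the lowest brain share (23.5%).

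Among the neurexin family, 63 and 56 of the 158 BURs of *Nrxn3* were bound in brain (39.9% and 35.4%). In thymocytes 29 and 33 were bound (18.4% and 20.9%), and in keratinocytes 10 in each library (6.33%). *Nrxn3* had the highest thymocyte and keratinocyte shares of the 9 genes, although the interval of its keratinocyte share, 3.08% to 11.3%, held the share of all BURs. *Cntnap2* had 161 and 152 of 378 BURs bound in brain (42.6% and 40.2%). In thymocytes 59 and 48 were bound (15.6% and 12.7%), and in keratinocytes 9 and 11 (2.38% and 2.91%). Its shares were thus close to those of the group in every tissue.

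Of the 2 IgLON genes, *Opcml* had the lower share in every library of each tissue. *Lsamp* had 29 and 27 of 69 BURs bound in brain (42.0% and 39.1%), 10 and 8 in thymocytes (14.5% and 11.6%), and 2 and 4 in keratinocytes (2.90% and 5.80%). *Opcml* had 29 and 23 of 79 bound in brain (36.7% and 29.1%), 8 in each thymocyte library (10.1%) and 1 in each keratinocyte library (1.27%, interval 0.0320% to 6.85%). The single *Opcml* BUR bound in keratinocytes was the one bound in all 6 libraries, whose sequence is shown above.

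In the cadherin system, *Cdh13* had 8 of 34 BURs bound in each brain library (23.5%), 3 and 4 in thymocytes (8.82% and 11.8%), and 2 in each keratinocyte library (5.88%, interval 0.720% to 19.7%). *Cdh13* had the fewest BURs of the 9 genes and the widest intervals in every library. *Ctnna2* had 46 and 38 of 123 bound in brain (37.4% and 30.9%), 11 and 9 in thymocytes (8.94% and 7.32%), and 2 in each keratinocyte library (1.63%). *Ctnna2* had the lowest mean thymocyte share of the 9 genes (8.13%), with 11 BURs at most. In thymocyte replicate 1 *Cdh13* lay lower (8.82% against 8.94%).

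The scaffold gene *Dlg2* had 122 and 111 of 284 BURs bound in brain (43.0% and 39.1%), 45 and 36 in thymocytes (15.8% and 12.7%), and 4 in each keratinocyte library (1.41%). The upper end of the interval in keratinocytes, 3.57%, lay below the share of all BURs in either library (3.71% and 3.64%). *Csmd1* had 58 and 56 of 159 bound in brain (36.5% and 35.2%), 20 in each thymocyte library (12.6%), and 7 in each keratinocyte library (4.4%). *Macrod2*, the member without a role in adhesion, had 109 and 102 of 239 bound in brain (45.6% and 42.7%), 38 and 33 in thymocytes (15.9% and 13.8%), and 8 in each keratinocyte library (3.35%). By mean brain share the order was *Macrod2* (44.1%), *Cntnap2* (41.4%), *Dlg2* (41.0%), *Lsamp* (40.6%), *Nrxn3* (37.7%), *Csmd1* (35.8%), *Ctnna2* (34.1%), *Opcml* (32.9%) and *Cdh13* (23.5%). The lower library of *Macrod2* (42.7%) lay just above the higher one of *Cntnap2* (42.6%), within the intervals of both. From *Cntnap2* to *Opcml* the library values of each neighbouring pair overlapped, and those of *Cdh13* lay below the others.

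Equal counts in 2 libraries did not always mean the same sites. Of the 10 BURs of *Nrxn3* bound in each keratinocyte library, 8 were shared, and for *Dlg2* 3 of 4. In *Macrod2*, *Ctnna2*, *Cdh13* and *Opcml* the keratinocyte libraries bound the same BURs. Over the 9 genes, 513 BURs were bound in both brain libraries, which is 82.1% of those in replicate 1 and 89.5% of those in replicate 2.

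Taking the 1523 BURs as 1 set, 39.3% ± 2.41 were bound in brain, 13.9% ± 1.11 in thymocytes and 3.09% ± 0.186 in keratinocytes (mean ± SD, n = 2 libraries). The share of all BURs was 35.7% ± 2.08, 13.8% ± 1.19 and 3.67% ± 0.0511. The ratio of the members' share to that of all BURs in the same library was therefore 1.10 ± 0.00340 in brain, 1.01 ± 0.00594 in thymocytes and 0.840 ± 0.0622 in keratinocytes. Other genes of at least 500 kb had ratios of 1.12 ± 0.00136, 1.09 ± 0.00252 and 0.964 ± 0.00915, so the brain ratio of the 9 genes was not above that of long genes in general. The brain share was 2.84 times the thymocyte share in the members, 2.67 times in other long genes and 2.59 times over all BURs. The thymocyte share was 4.49, 4.24 and 3.74 times the keratinocyte share in the same sets.

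The order keratinocytes, thymocytes, brain was tested in each gene with an exact one-sided Jonckheere-Terpstra permutation test over 90 arrangements of the libraries, adjusted over 717 genes of at least 100 kb with at least 20 BURs. All 9 genes passed, each with an exact permutation p = 0.0111, the smallest the design allows, and adjusted p = 0.0120. The one-sided direction was the order that the study had already reported for all BURs in these tissues, so passing is no independent evidence for it. The order was found in 97.6% of the 717 genes, so it did not set the 9 apart. When every list was cut to the size of the smallest by its q-values, 0 of the 717 genes passed the adjusted test, 105 had an unadjusted p under 0.05 (3 of the 9), and the members' shares were 4.43% in brain, 4.01% in thymocytes and 3.09% in keratinocytes. The order thus held for the lists as the authors called them, and list length moves with tissue.

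To ask whether a gene's share moved more or less between tissues than that of all BURs, the log2 odds of being bound, with 0.5 added to each count, were centred on all BURs of the library and compared with limma over the 717 genes. Differences below are on that log2 scale with their standard error, and p-values are adjusted over the 717 genes by the Benjamini-Hochberg method. The standard error comes from a single fit of all tissues, with a single spread per gene that limma moderates. It thus also holds the spread of the tissue outside a comparison. Leaving out a keratinocyte library left the differences between brain and thymocytes as they were but moved their p-values. The 2 libraries of a tissue bind largely the same BURs, and the standard error does not hold the counting error of few bound BURs.

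Between brain and thymocytes, 2 of the 9 genes were higher in brain beyond the shift of all BURs and 0 were lower by limma, with 1 lower at an unadjusted p under 0.05 (*Nrxn3*). These were *Ctnna2*, with a difference of 0.70 ± 0.13 (SE; limma, adjusted p = 0.0266), and *Macrod2*, with 0.37 ± 0.083 (limma, adjusted p = 0.0397). The centred level of *Ctnna2* was -0.094 in brain and -0.79 in thymocytes, so that it lay close to all BURs in brain and below them in thymocytes. *Nrxn3* had a difference of -0.50 ± 0.16 (limma, adjusted p = 0.0881) and *Cdh13* one of -0.48 ± 0.24 (limma, adjusted p = 0.231). Over all genes tested, 10% were called higher in brain and 7.11% lower, and the median difference was 0.050, against 0.26 for the members. Both calls were lost when any 1 of the 4 brain or thymocyte libraries was left out, with values of 0.58 to 0.81 in *Ctnna2* and 0.35 to 0.38 in *Macrod2*. With lists of equal size *Csmd1* and *Opcml* were called lower in brain (-1.24 and -1.12) and *Cntnap2* higher (0.56), and *Ctnna2* (0.57) and *Macrod2* (-0.052) were no longer called.

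Between thymocytes and keratinocytes, *Dlg2*, *Cntnap2* and *Opcml* were higher in thymocytes and *Csmd1* and *Cdh13* lower. The difference was 1.32 ± 0.092 in *Dlg2* (limma, adjusted p = 0.000744), in which 4 BURs were bound in each keratinocyte library against 45 and 36 in thymocytes. It was 0.48 ± 0.12 in *Cntnap2* (limma, adjusted p = 0.0230) and 0.58 ± 0.16 in *Opcml* (limma, adjusted p = 0.0303). *Csmd1* differed by -0.48 ± 0.12 (limma, adjusted p = 0.0181) and *Cdh13* by -1.33 ± 0.24 (limma, adjusted p = 0.00821), with only 2 BURs of *Cdh13* bound in keratinocytes. *Nrxn3*, *Lsamp*, *Ctnna2* and *Macrod2* were not called, with values of -0.26, -0.43, 0.10 and 0.20. The *Lsamp* value rested on single libraries, being -0.89 and called lower without keratinocyte replicate 1 and 0.029 without replicate 2. *Nrxn3* had -0.043 without thymocyte replicate 1 and -0.48, called lower, without replicate 2. Over all genes tested, 19.4% were called higher and 24.5% lower in thymocytes, with a median difference of -0.14, against 0.10 for the members. Without thymocyte replicate 1 or 2, *Dlg2* was the one member still called higher, and *Csmd1* (-0.38) was not called without replicate 1. *Cntnap2* was also not called without either brain library. With lists of equal size 0 of the 9 were called by limma (2 at an unadjusted p under 0.05), and with 2 added to each count in place of 0.5 the *Opcml* value became -0.19.

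Between brain and keratinocytes, 8 of the 9 genes were called, 5 higher in brain and 3 lower. *Dlg2* had the largest rise, 1.58 ± 0.092 (limma, adjusted p = 0.000219), or 2.98-fold in the odds relative to all BURs. *Opcml* (0.83 ± 0.16), *Ctnna2* (0.80 ± 0.13), *Cntnap2* (0.78 ± 0.12) and *Macrod2* (0.57 ± 0.083) were also higher, with adjusted p between 0.00301 and 0.00766 (limma). *Cdh13* had the lowest value, -1.80 ± 0.24 (limma, adjusted p = 0.00221), *Nrxn3* had -0.76 ± 0.16 (limma, adjusted p = 0.00995) and *Csmd1* -0.35 ± 0.12 (limma, adjusted p = 0.0466). *Lsamp* had -0.096 ± 0.30. In each keratinocyte library only 1 BUR of *Opcml* and 2 each of *Ctnna2* and *Cdh13* were bound, and the standard error does not hold the counting error of so few. Over all genes tested, 24.3% were called higher and 26.8% lower in brain, with a median of -0.078, against 0.57 for the members. The calls of *Dlg2* and *Cntnap2* were kept under each of 18 other settings, whereas those of *Nrxn3* and *Csmd1* were lost when either brain library was left out, and that of *Csmd1* also without keratinocyte replicate 2. With lists of equal size, *Nrxn3* and *Opcml* changed sign to 0.12 and -0.35, and *Cdh13*, *Ctnna2* and *Macrod2* were no longer called. With 2 added to each count in place of 0.5, *Opcml* also changed sign and fewer of the 9 genes were called higher in brain.

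**Figure D2:**
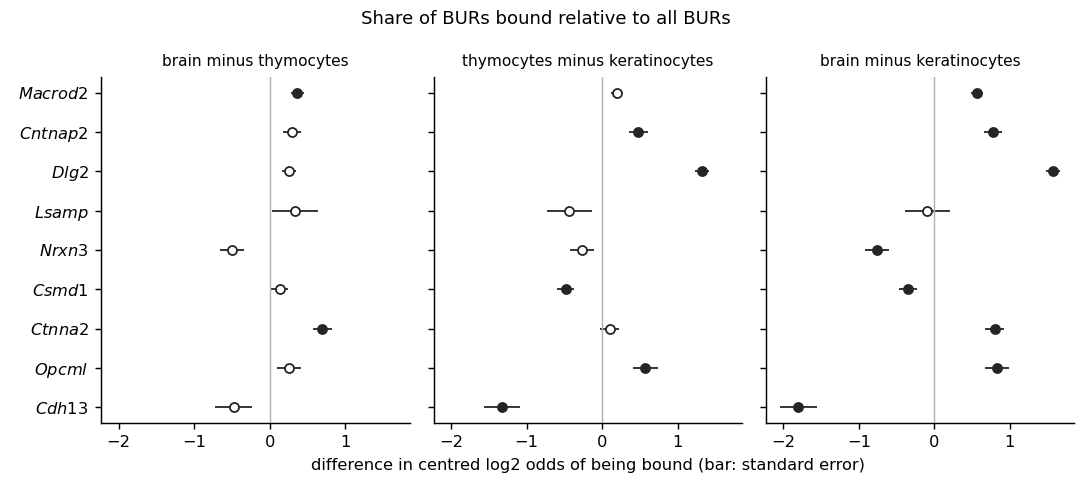
Difference between tissues in the log2 odds that a BUR of the gene was bound, centred on all BURs of each library, with bars of 1 standard error (n = 2 libraries per tissue). Filled points passed an adjusted p of 0.05 over 717 genes, and *Dlg2* lies furthest to the right in the 2 comparisons with keratinocytes (1.32 and 1.58).

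The pattern of occupancy over the 6 libraries was counted for each BUR. Of the members' BURs, 836 (54.9%) were bound in no library and 275 (18.1%) in both brain libraries alone. Another 120 (7.88%) were bound in both brain and both thymocyte libraries without keratinocytes, and 40 (2.63%) in all 6. Over all BURs these shares were 59.5%, 16.1%, 7.23% and 2.86%, and in other long genes 55.0%, 18.6%, 8.06% and 2.84%. Only 2 of the 1523 BURs, or 0.131%, were bound in thymocytes or keratinocytes and in neither brain library. This class made up 0.515% of all BURs and 0.341% of those in other long genes. The 2 BURs lay in *Nrxn3* and *Macrod2*, 1 in each. *Macrod2* had the highest share of brain-only BURs, 54 of 239 or 22.6%, and *Cdh13* the lowest, 3 of 34 or 8.82%. Among the BURs bound in all 6 libraries, *Nrxn3*, *Cntnap2* and *Macrod2* held 8 each, *Csmd1* 6, *Dlg2* 3, *Lsamp*, *Ctnna2* and *Cdh13* 2 each, and *Opcml* 1.

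**Figure D3:**
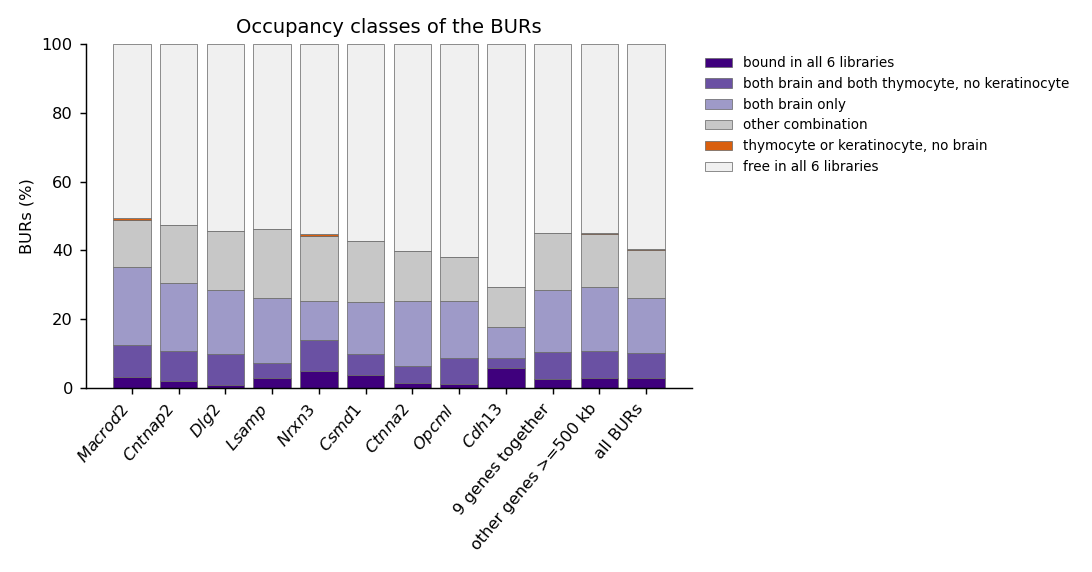
Share of BURs (%) in each occupancy class, for each gene, the 9 genes together, other genes of at least 500 kb and all BURs. The free class makes up between 50.6% in *Macrod2* and 70.6% in *Cdh13*, and the class without brain is at most 0.633% in any gene.

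The occupancy classes differed in how strongly SATB1 had bound them in vitro. The median in vitro fold enrichment of member BURs was 9.16 in those bound in all 6 libraries, 8.30 in those of brain and thymocytes, 5.98 in brain-only BURs and 5.10 in free BURs. Their median lengths were 501, 480, 452 and 407 bp. The BURs bound in all libraries were less AT-rich (median 67.2%) than brain-only (70.3%) and free BURs (70.6%). Over all BURs the medians of in vitro fold enrichment were 10.2, 8.15, 6.40 and 5.29 in the same classes. A peak called over a longer BUR has more bases in which to overlap it, and the part of length in the order was not tested.

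Within the lowest quartile of in vitro fold enrichment, with limits set over all BURs at 4.23, 5.88 and 8.83, the members' shares were 23.9% in brain, 5.19% in thymocytes and 0.380% in keratinocytes. In quartile 2 they were 38.4%, 8.4% and 2.22%, and in quartile 3 they were 47.2%, 19.4% and 3.32%. In the highest they were 49.3%, 23.9% and 6.77%. The share thus rose with in vitro enrichment in each tissue, and the keratinocyte share of the lowest quartile stands on 1 and 2 bound BURs of 395. Over all BURs the shares in the highest quartile were 46.4%, 25.1% and 8.67%. The members' keratinocyte share lay below that of all BURs in quartiles 1, 3 and 4 and above it in quartile 2 (2.22% against 1.61%).

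Along the genes, BUR density fell from the 5′ to the 3′ end. With each gene cut into 10 equal parts on its own strand, density was 140 BURs per Mb in part 1, 118 in part 5 and 82.3 in part 10. The 5′ 50% of the gene bodies held 861 BURs (129 per Mb) and the 3′ 50% held 662 (99.1 per Mb). Other long genes had 118 and 106 per Mb. The slope was carried by some of the genes. *Cntnap2* had 220 BURs per Mb in its 5′ 50% and 118 in its 3′ 50%, with 281 in part 1 and 58.0 in part 10. *Dlg2* (174 and 118), *Macrod2* (140 and 99.1) and *Ctnna2* (138 and 85.6) had the same direction. *Nrxn3* (79.4 and 117) and *Opcml* (49.4 and 89.9) had the opposite one, and in *Nrxn3* part 1 held only 3 BURs.

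The share of BURs bound changed little along the gene in brain and thymocytes. The ratio of the share in the 5′ 50% to that in the 3′ 50% was 1.05 ± 0.00471 in brain (40.2% and 38.1%), 0.975 ± 0.0343 in thymocytes (13.7% and 14.0%) and 0.650 ± 0.125 in keratinocytes (2.50% and 3.85%; SD, n = 2 libraries). In other long genes it was 0.982, 0.958 and 0.889. The keratinocyte ratio rests on few BURs. In *Macrod2* the shares were 2.14% and 5.05%, and in *Csmd1* 1.83% and 7.14%, from 8 and 7 bound BURs per library. *Nrxn3*, *Ctnna2* and *Cdh13* had the same direction. The mean shares went the other way in *Cntnap2* (2.85% and 2.27%), *Dlg2* (1.48% and 1.30%), *Lsamp* (5.26% and 3.23%) and *Opcml* (3.57% and 0%). In *Dlg2* and *Lsamp* the 2 libraries differed in direction. In *Opcml* the thymocyte share was 17.9% in the 5′ 50% and 5.88% in the 3′ 50%, the same in both libraries, from 8 bound BURs. In *Ctnna2* it was 5.92% and 11.7%. Comparing the first 200 kb with the rest of each gene instead moved the brain ratio below 1, to 0.930 ± 0.0290, and the thymocyte ratio to 0.901 ± 0.0835.

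**Figure D4:**
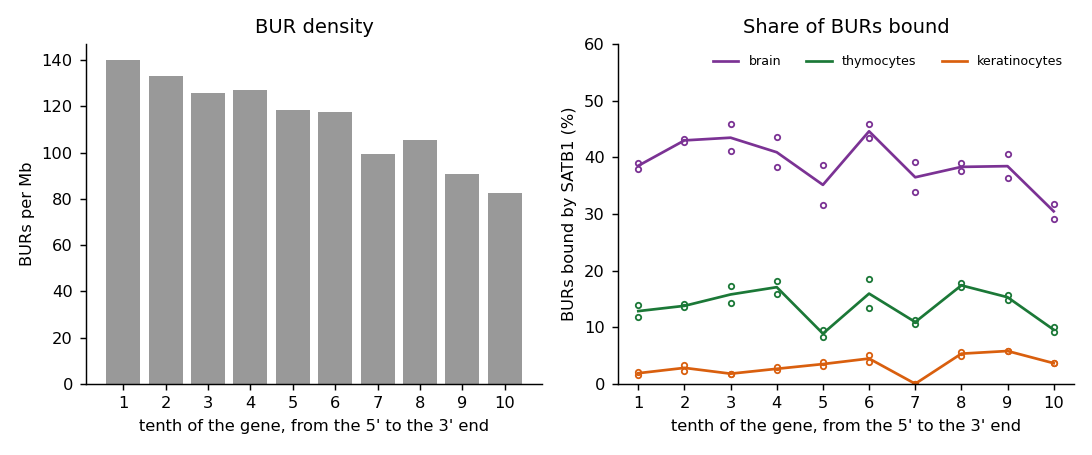
BUR density (BURs per Mb, left) and share of BURs bound (%, right) in 10 equal parts of the 9 gene bodies pooled, from the 5′ to the 3′ end. Density goes from 140 to 82.3 per Mb, and the points on the right are the 2 libraries of each tissue around the line of their mean.

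Distances from the annotated 5′ end of each gene were taken to the nearest centre on either side, within the gene or upstream of it. The nearest BUR centre lay 971 bp from the start in *Macrod2*, between 2135 and 4113 bp away in *Ctnna2*, *Cntnap2*, *Lsamp*, *Csmd1* and *Dlg2*, and 21363 bp away in *Opcml*. The nearest brain peak was 1358 and 1394 bp from the start of *Cntnap2* in the 2 libraries, and between 4038 and 31733 bp from the starts of the other 8 genes. In *Nrxn3*, whose first 141 kb held no BUR, all 6 urea libraries had a peak centre between 4038 and 4081 bp from the annotated start, and the nearest BUR centre was 13114 bp away.

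The gene bodies were compared with 500 kb on each side. The bodies held 114 BURs per Mb and the flanks 90.4. The ratio of the share bound in the bodies to that in the flanks was 1.03 ± 0.0351 in brain, 1.04 ± 0.0318 in thymocytes and 0.851 ± 0.0308 in keratinocytes (SD, n = 2 libraries), with flank shares of 38.2%, 13.3% and 3.62%. *Opcml* stood out among the genes in this respect. Its body had 10.1% of BURs bound in thymocytes and 1.27% in keratinocytes, and its flanks, which hold *Igsf9b*, *Spata19* and part of *Ntm*, had 22.6% and 11.3%, with similar brain shares (32.9% and 33.9%). It was singled out after its values were seen. *Macrod2* had the reverse, 44.1% in the body and 35.4% in the flanks in brain, and 14.9% and 8.43% in thymocytes. *Dlg2* held 146 BURs per Mb in its body and 61 in its flanks, the largest drop of the 9 genes.

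Counting every peak by its centre, on a BUR or not, the 9 gene bodies had 64.4 ± 3.49 peaks per Mb in brain, 21.5 ± 1.59 in thymocytes and 4.12 ± 0.212 in keratinocytes with urea ChIP-seq of SATB1 (SD, n = 2). These were 1.51, 1.36 and 1.01 times the density of the same lists over the genome. Other long genes had 61.3, 21.6 and 5.03 peaks per Mb. Of the brain peaks in the 9 genes, 69.6% and 69.0% overlapped a BUR, of the thymocyte peaks 74.2% and 73.5%, and of the keratinocyte peaks 84.9% and 86.0%. Over the genome these shares were 73.0% and 72.8%, 75.8% and 77.6%, and 78.5% and 79.6%, so that the members lay below the genome in brain and thymocytes and above it in keratinocytes, where they had 53 and 57 peaks. Brain peak density ran from 23.1 per Mb in *Cdh13* to 85.9 per Mb in *Cntnap2*. Standard ChIP-seq gave 1.46 ± 0.794 peaks per Mb, and CTCF 1.42 per Mb in thymocytes and 5.31 per Mb in keratinocytes. These were 0.104, 0.187 and 0.452 times the densities over the genome, and other long genes had 0.355, 0.385 and 0.575 times.

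In thymocytes, urea and standard ChIP-seq of SATB1 were compared in each gene by limma on the log2 of peaks per Mb, with 0.5 added to each count and centred on the peaks per Mb of each library, over 2399 genes of at least 100 kb. All 9 genes were higher with urea. *Cntnap2* had 69 and 58 urea peaks against 5 and 3 standard peaks, a difference of 3.64 ± 0.31 (SE; limma, adjusted p = 6.47e-05). *Macrod2* had 48 and 45 against 3 and 2, a difference of 3.77 ± 0.33 (limma, adjusted p = 7.37e-05). *Nrxn3* had 41 and 44 against 3 and 2, and *Dlg2* had 55 and 45 against 7 and 1. *Ctnna2* had 21 and 17 against 1 and 0, *Csmd1* 26 and 29 against 2 and 2, and *Lsamp* 16 and 12 against 4 and 0. *Cdh13* had the smallest difference, 10 and 8 against 2 and 2 (1.70 ± 0.43; limma, adjusted p = 0.00772). *Opcml* had 16 and 14 urea peaks and no standard peak, which at 3 peaks per standard library is at least 4.29-fold higher.

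Over all genes tested, 33.5% were called higher with urea and 25.5% lower, with a median difference of 0.21. The median of the members was 3.64, also with *Opcml* at that bound. The call of *Cdh13* was lost without either thymocyte urea library (1.65 and 1.75) and with lists of equal size (1.85), those of *Lsamp* and *Dlg2* without centring, and that of *Lsamp* also with lists of equal size. The standard replicates differ in antibody and in the seconds of their titles, as given above, and the part of these in the comparison was not tested.

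**Figure D5:**
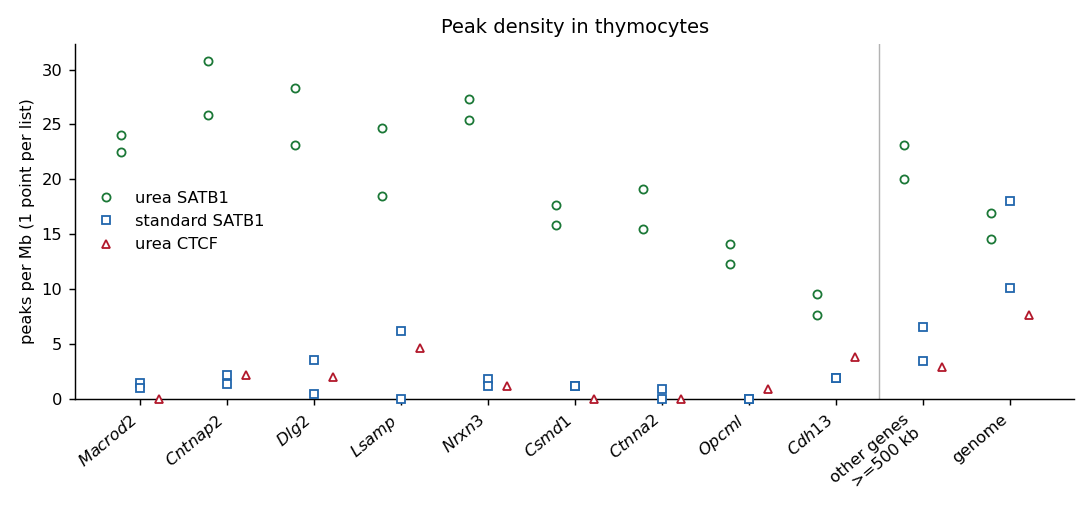
Peaks per Mb of gene body in thymocytes for urea SATB1 (2 lists), standard SATB1 (2 lists) and urea CTCF (1 list), with other genes of at least 500 kb and the genome at the right. In all 9 genes both urea SATB1 points lie above every standard SATB1 and CTCF point.

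The standard SATB1 and CTCF peaks in the 9 genes merged into 94 sites. A standard SATB1 peak was present at 34 of them, in both replicates at only 5. CTCF in thymocytes or keratinocytes was also present at 12 of the 34. At some of these 12, among them the *Dlg2* site given below, the CTCF peak was in keratinocytes alone, whereas the standard SATB1 lists are from thymocytes. Of the 34, 3 overlapped a BUR and 3 lay within 2 kb of an annotated transcript start. One of these spans the 5′ end of *Macrod2* (chr2:140220765-140221336), with fold enrichments of 14.4 and 6.08 in the 2 standard lists, no urea SATB1 peak and no CTCF peak. Another lies 64 bp from the start of a *Cntnap2* transcript (chr6:47194155-47194520), with 14.1 and 10.0. A site in *Dlg2* (chr7:97692564-97692789) had standard peaks of 12.1 and 10.4, a CTCF peak of 19.4 in keratinocytes and a urea SATB1 peak. CTCF was present at 72 sites, at 19 in thymocytes, at 71 in keratinocytes and at 18 in both, and 5 of the 72 overlapped a BUR. The thymocyte CTCF list had no peak in *Macrod2*, *Csmd1* or *Ctnna2*.

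Among 179 other protein-coding genes of at least 500 kb with at least 20 BURs, likeness to the members' mean log2 odds over the 6 urea libraries was measured by Euclidean distance. The 5 nearest were *Ctnna3* (0.290), *Pcdh15* (0.318), *Pgcp* (0.440), *Atrnl1* (0.453) and *Lrp1b* (0.461). *Ctnna3* encodes another α-catenin, *Pcdh15* a protocadherin of the inner ear and *Lrp1b* a receptor of the LDL receptor family. In *Ctnna3* 35.2%, 13.8% and 3.17% of 189 BURs were bound in brain, thymocytes and keratinocytes. The members themselves lay between 0.672 (*Cntnap2*) and 2.06 (*Cdh13*) from their mean. The 5 were chosen for small distance, so the 2 ranges cannot be compared.

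A list of 71 other genes, taken by name as neuronal adhesion genes, was counted with the same tests. It was drawn up with earlier results of these data known, so it is not an independent comparison set. The name does not hold for all of these either, since the list includes *Lrp1b* and the α-catenin gene *Ctnna3*. Of the 71, 46 met the limits on length and BUR number. Between brain and thymocytes 6 were called higher in brain and 2 lower (*Dlgap2* and *Ntm*, -1.23 to -0.90), with a median of 0.21. Between thymocytes and keratinocytes 12 were higher and 7 lower (*Cdh8*, *Cdh10*, *Cdh12*, *Cntn3*, *Cntnap5a*, *Cntnap5b* and *Ptprt*, -1.45 to -0.38). Between brain and keratinocytes 17 were higher and 8 lower (*Cdh8*, *Cdh10*, *Cdh18*, *Cntnap5b*, *Dlgap2*, *Ntm*, *Ptprt* and *Sdk1*, -1.17 to -0.42). In percent these are 13.0 and 4.35, 26.1 and 15.2, and 37.0 and 17.4, beside the background shares given above. Of 57 tested for urea against standard, 50 were higher and *Cdh22* was lower (-2.96). The 3 with the most BURs were *Lrp1b* (447), the phosphatase receptor gene *Ptprd* (422) and *Csmd3* (302), a relative of *Csmd1*. *Lrp1b* was called higher in brain against thymocytes (0.44 ± 0.067; limma, adjusted p = 0.0230) and keratinocytes (0.56 ± 0.067; limma, adjusted p = 0.00158). *Ptprd* was called higher only against keratinocytes (0.45 ± 0.14; limma, adjusted p = 0.0342). *Csmd3* had 0.060 ± 0.20 and 0.42 ± 0.20 in these comparisons, neither of which passed. *Csmd1*, by contrast, was lower in brain than in keratinocytes by this measure, and the difference between the 2 genes was not tested.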

How the data were processed

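The authors mapped reads of each library to mm9 with Bowtie2 2.3.1, kept unique matches and called the peaks of every library alone with MACS2 2.2.7, which kept those under a q-value of 0.01 (the submitters' processing notes and the study's methods). The deposited fold enrichment is the peak caller's ratio at the summit to the local background, and the deposited −log10 q-value is computed within each list. Neither is scaled between libraries. The lists give no read counts (the study's text calls the aligned totals of the urea libraries similar), and all peaks on chromosomes 1 to 19, X and Y were used. Genes came from GENCODE vM1 and sequence from NCBIM37. Tests used limma 3.58.1 in R 4.3.3 (trend on gene length or BUR number) with Benjamini-Hochberg adjustment, and exact permutation. They were also run on simulated data with libraries drawn independently. Such data lack the overlap of bound BURs between the 2 libraries of a tissue, so they cannot show how that overlap affects the p-values. Counting used Python 3.11.15, numpy 2.4.6, pandas 2.3.3 and scipy 1.17.1. Replicate numbers are those of the labels. The members and all lists were chosen with earlier results of these data known. Named sites are, per gene, the BUR bound in all 6 libraries with the highest mean fold, and brain-only and free BURs in the 3 genes with most BURs. Genes with identical counts in replicates gave zero variances, which limma moderates. Knockout, input, Hi-C, 4C and the second CTCF thymocyte sample are not used here. The alternatives were stricter peaks, BUR summit or 50% coverage, equal list sizes, stronger BURs, other limits, added counts and centring, peaks per Mb, the replicate block and leaving out each library.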

Additional observations from a re-analysis of the deposited data

How the results depend on the processing

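The values below are counts of genes called, unless a log2 difference, share or ratio is named, and the cause of each change was not tested. Leaving out a replicate gave 0 to 4 members higher and 0 to 2 lower, and 0 to 214 genes, between brain and thymocytes (2, 0 and 123 with all libraries). The 0 genes came without brain replicate 2, by limma, with 184 at an unadjusted p under 0.05, and 2 genes without brain replicate 1. The same gave 1 to 3 higher, 1 to 3 lower and 274 to 366 genes between thymocytes and keratinocytes (3, 2 and 315), 5 higher, 1 to 4 lower and 236 to 398 genes between brain and keratinocytes (5, 3 and 366), and 900 to 1663 genes for urea against standard (1414). With lists of equal size, members higher and lower were 1 and 2, 0 and 0, and 2 and 1 in the 3 tissue comparisons in this order, brain against thymocytes called 293 genes, and the tissue order passed in 0 members and 0 genes. Without centring, all 9 members were higher and 0 lower in each tissue comparison, the genes called were 658, 644 and 716 (803 for urea against standard), and calls in the higher direction made up 100%, 99.4%, 99.7% and 70.5% of calls, against 58.5%, 44.1%, 47.5% and 56.8% with it. The replicate block gave 1 member higher and 62 genes between brain and thymocytes, and it ended the calls of *Macrod2* there, of *Opcml* between thymocytes and keratinocytes and of *Csmd1* between brain and keratinocytes. The centred differences between replicates 1 and 2 of the tissues correlated with each other at 0.0088, -0.028 and -0.046 across 717 genes. For urea and standard they did so at -0.020 across 2399. A batch shared by libraries of the same replicate number was not tested beyond this. With 2 added to each count, 2 members were lower between brain and thymocytes, 5 lower between thymocytes and keratinocytes and 3 higher between brain and keratinocytes, and 216, 500 and 555 genes were called. With stronger BURs only, 408 genes were tested in place of 717. Of these 408, 53, 169 and 219 were called and 402 passed the tissue order, with 1 lower member between thymocytes and keratinocytes. At least 100 BURs per gene gave 12, 30 and 45 genes of 79 tested. It left 1 lower member in both comparisons with keratinocytes, where *Cdh13*, *Lsamp* and *Opcml* were no longer tested. At least 5 BURs gave 617, 902 and 1115 genes of 1918 tested. Peaks per Mb gave 586, 1196 and 1430 genes of 2399 tested. It gave 0 members higher between brain and thymocytes, and 1 lower in both comparisons with keratinocytes. Covering 50% of the BUR gave 1 higher and 1 lower member between brain and thymocytes, and centring on the median gene gave 1 higher there and 1 lower between thymocytes and keratinocytes. Genes of at least 300 kb gave 385, of fewer tested, for urea against standard.

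Log2 differences called in at least 1 of the 2 fits changed sign with lists of equal size in *Csmd1* (-1.24), *Opcml* (-1.12) and *Macrod2* (-0.052) between brain and thymocytes, *Csmd1* (0.27) between thymocytes and keratinocytes, and *Nrxn3* (0.12) and *Opcml* (-0.35) between brain and keratinocytes. They did so without centring in *Nrxn3* and *Cdh13* between brain and thymocytes (1.30 and 1.32), in *Nrxn3*, *Lsamp*, *Csmd1* and *Cdh13* between thymocytes and keratinocytes (1.80, 1.63, 1.58 and 0.74) and between brain and keratinocytes (3.10, 3.77, 3.51 and 2.06). With 2 added, *Ctnna2* (-0.38) and *Opcml* (-0.19) did so between thymocytes and keratinocytes and *Opcml* (-0.11) between brain and keratinocytes, and with peaks per Mb *Csmd1* (0.17) did so there. Differences that were not called and stayed so also changed sign, with lists of equal size in *Nrxn3* (0.081 between brain and thymocytes, 0.037 between thymocytes and keratinocytes), *Ctnna2* (-0.24 between thymocytes and keratinocytes) and *Lsamp* (0.095 between brain and keratinocytes). Stronger BURs turned *Csmd1* (-0.069) between brain and thymocytes and *Ctnna2* (-0.23) between thymocytes and keratinocytes, 50% of the BUR covered turned *Ctnna2* (-0.18) and *Macrod2* (-0.086) there, and peaks per Mb turned *Nrxn3* (0.083) there and *Lsamp* (0.10) between brain and keratinocytes. Leaving out a replicate moved *Lsamp* from -0.89 to 0.029 between thymocytes and keratinocytes and from -0.56 to 0.36 between brain and keratinocytes. Of 567 values of single genes, 452 kept direction and side of the threshold and 32 changed sign. The members' shares in brain, thymocytes and keratinocytes became 36.7%, 11.8% and 2.63% with 50% of the BUR covered and 47.1%, 19.2% and 4.5% with stronger BURs, and 4.43% and 4.01% in brain and thymocytes with equal lists. The ratio to all BURs in brain and thymocytes became 1.09 and 1.02 with the BUR summit in the peak, 1.09 and 1.01 with 50% covered, 0.968 and 0.944 with equal lists and 1.09 and 1.02 with stronger BURs. The first 200 kb against the rest gave ratios of 0.930 and 0.901 (1.05 and 0.975 for the 5′ 50%), and flanks of 1 Mb gave 1.07 in brain and 0.889 in keratinocytes (1.03 and 0.851). Read totals per library were not used, so how far deeper sequencing would move the shares is not given.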
